A study of Mus musculus with 7 samples.

Results

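Inverted joins of the JH4 bait to D and V segments of the mouse Igh locus were described from 704 junctions of 264791 sequenced in all. The assay, HTGTS (high-throughput genome-wide translocation sequencing), sequences outwards from a bait, the coding end of JH4, into the DNA joined to it, called prey. The DNA came from bone marrow pro-B cells of 129SVE mice aged 4 to 6 weeks, sorted as B220+CD43highIgM-. The groups were WT (n = 3 libraries) and VH81X-CBEscr/scr (n = 4 libraries, called mutant from here on). No label explains the mutant's name, which is taken to mean that both copies of a CTCF-binding element next to VH81X are scrambled. The libraries of both groups shared strain, age range, sort and bait. The study set out to compare VH use between these genotypes. Each deposited line is 1 read with 1 junction, and a junction was a member where its prey lay on chromosome 12 (files' reference, mm9) on the minus strand within the D or the V segments. The D window ran from 114.673 to 114.735 Mb and held 264 inverted lines, between 114673075 and 114734546. The V window ran from 114.831 to 117.838 Mb and held 440 inverted lines, between 114836372 and 117831390. The same windows held 162617 and 95203 lines in the deletional orientation, that of the usual D and V joins to JH4. Joins to D and to V segments were both abundant, while the sorted cell type itself cannot be checked from junctions.

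RAG cuts between a coding segment and its recombination signal, which is a heptamer, a spacer and a nonamer. In a usual joint 2 coding ends are joined with each other. In a hybrid joint a coding end is joined to the signal of the other segment, which is read as prey in the inverted orientation beginning at the heptamer. A D segment carries a signal on each side, so it can also be joined by inversion, which leaves its coding bases, in the inverted orientation, between the bait and its JH-side heptamer. The second kind can look like the first where all D coding bases were trimmed away. A V segment carries a signal on its JH side alone.

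The signals next to which inverted prey began are shown because they mark where these joins lie. They were read from the consensus of the inverted prey themselves, 5′ to 3′ on the minus strand, with the heptamer and the nonamer in capitals and the spacer in lower case. Those of D segments were read with a spacer of 12 bases, the only length tried. Segments other than DQ52, DFL16.1 and 8 V segments near VH81X are named by their most frequent deletional junction.
DQ52: CACGGTGacacgtggctcaACAAAAACC
D_114687612: CACTGTAagaaaagctcaaACCAAAACT
D_114695747: CACAGTGatatatccagcaACAAAAACC
D_114719358: CACAGTGctatatccagcaACAAAAACA
DFL16.1: CACAGTGctatatccatcaGCAAAAACC

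The DQ52 signal lies at chr12:114673061-114673088 and that of DFL16.1 at chr12:114734516-114734543, DQ52 being the D segment nearest to JH and DFL16.1 the farthest. The sequence shown for D_114695747 (chr12:114695719-114695746) was identical over all 28 bases at 7 D segments, which together held 145 inverted lines. DQ52 and D_114687612 (chr12:114687584-114687611) were the 2 with inverted lines whose heptamer was CACGGTG or CACTGTA. D_114719358, at chr12:114719330-114719357, is shown because inverted lines were few there.

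The V signals are given for the 4 V segments with the most inverted lines and for V_115635402 and V_115006778.
VH81X: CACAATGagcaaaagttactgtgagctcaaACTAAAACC
VH2-2: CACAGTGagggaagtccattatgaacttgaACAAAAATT
VH5-4: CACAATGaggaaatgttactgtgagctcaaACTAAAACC
VH2-3: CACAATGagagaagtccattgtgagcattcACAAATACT
V_115635402: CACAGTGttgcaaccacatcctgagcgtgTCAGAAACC
V_115006778: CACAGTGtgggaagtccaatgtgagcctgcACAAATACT

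VH81X, the V segment beside the altered element, has its signal at chr12:114836338-114836376. The signals of VH2-2, VH5-4 and VH2-3 lie at chr12:114846103-114846141, chr12:114855322-114855360 and chr12:114869064-114869102. A signal could be read at 51 V segments, of which 41 had the heptamer CACAGTG and 8 had CACAATG. The spacer was 23 bases at 33 of them and 22 bases at 18, among them V_115635402 (chr12:115635364-115635401). The 22-base spacers came from placing the nonamer where it matched best, and were not checked against an annotation.

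Whole joins show how the pieces lie in a read. In each line the first 12 bases are the end of the bait, the bases inserted between bait and prey follow, and then the prey; capitals mark the heptamer and nonamer, or, in the deletional join, the 23 coding bases of DFL16.1.
DFL16.1 inverted: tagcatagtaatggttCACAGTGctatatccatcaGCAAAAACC
DFL16.1 deletional: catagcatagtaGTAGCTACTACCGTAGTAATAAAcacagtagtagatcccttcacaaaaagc
D_114687612 inverted: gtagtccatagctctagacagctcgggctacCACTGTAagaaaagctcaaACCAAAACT
VH81X inverted: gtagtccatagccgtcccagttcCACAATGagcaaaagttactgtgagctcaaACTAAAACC
VH2-2 inverted: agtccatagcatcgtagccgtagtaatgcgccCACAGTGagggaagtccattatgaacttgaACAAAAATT

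The inverted DFL16.1 join held 4 inserted bases and no coding base, and was read in 12 lines of mutant replicate 1. The inverted join of D_114687612 held 3 inserted bases and then all 16 coding bases of that D segment in the inverted orientation, and was read in 5 lines of mutant replicate 3. The insert of the VH81X join was 11 bases long and shared 9 bases with DQ52, and the 20-base insert of the VH2-2 join shared 15 bases with D_114719358. Both of these D stretches were in the deletional orientation, while the V signal behind them was inverted.

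The libraries held 31986 to 46915 lines, and the D window 19492 to 31038 of them. Reads of the same junction recurred, so values are also given for distinct junctions, that is for combinations of position, bait end and inserted bases, each counted once per library. The 264 inverted D lines were 121 distinct junctions, of which 61 were read once. The 440 inverted V lines were 254 distinct junctions, of which 158 were read once. WT replicate 2 had the most repeated V lines, with 78 inverted lines from 23 distinct junctions. Only 1 distinct inverted junction of the D window and 1 of the V window were found in more than 1 library. Each sequencing run held libraries of 1 genotype only (4 runs), so run and genotype cannot be told apart in any comparison of genotypes.

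Inverted joins were rare at D segments and made up a larger share of D-window lines in the mutant than in WT. WT replicates 1 to 3 held 29, 20 and 40 inverted D lines, and mutant replicates 1 to 4 held 64, 32, 33 and 46. As shares of all D-window lines these were 0.128%, 0.0905% and 0.129% in WT and 0.255%, 0.164%, 0.157% and 0.214% in the mutant. The lowest mutant library stood above the highest WT library, so the groups did not overlap. The mean was 0.116% ± 0.0218 (SD, n = 3) in WT and 0.198% ± 0.0459 (SD, n = 4) in the mutant. The mean log2 difference was 0.76, with an exact permutation p of 0.029 (two-sided), the smallest that 3 against 4 libraries allow. Counting error alone was wide for single libraries, with 95% Wilson intervals of 0.0586% to 0.140% for the lowest and 0.200% to 0.325% for the highest.

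The same difference did not pass the threshold over distinct junctions or over lines not marked as duplicates. Counted as distinct junctions, the share was 0.154% ± 0.00234 (SD, n = 3) in WT and 0.253% ± 0.0573 (SD, n = 4) in the mutant. The log2 difference was then 0.69 with an exact p of 0.0571, although the groups again did not overlap. Over lines not marked as duplicates in the files, the shares were 0.386% ± 0.0983 and 0.597% ± 0.145 (SD, n = 3 and 4). The exact p was 0.114, and mutant replicate 3, at 0.395%, lay within the WT range of 0.277% to 0.467%.

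Inverted joins took a larger share of V-window lines than of D-window lines, and that share did not separate the genotypes. WT replicates 1 to 3 held 60, 78 and 69 inverted V lines, and mutant replicates 1 to 4 held 54, 68, 62 and 49. The shares were 0.354%, 0.707% and 0.461% in WT and 0.446%, 0.579%, 0.473% and 0.311% in the mutant. Both the highest and the second lowest library were WT. The means were 0.507% ± 0.181 (SD, n = 3) and 0.452% ± 0.111 (SD, n = 4), with a log2 difference of -0.14 and an exact permutation p of 0.714. The sign of this difference rested on single libraries, as it was 0.13 without WT replicate 2 and 0.028 without mutant replicate 4.

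Within a library the inverted share was higher in the V window than in the D window in 7 of 7 libraries. The mean log2 ratio of the shares was 1.57, with an exact sign-flip permutation p of 0.0156, the smallest that 7 libraries allow. It was 1.29 over distinct junctions, also in 7 of 7 libraries with the same p. Over lines not marked as duplicates it was 0.47 in 5 of 7 libraries, with an exact p of 0.0625, so the size of the gap depended on how repeated reads were counted. Its difference between the genotypes, -0.91 on the log2 scale, did not pass (exact p = 0.2).

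**Figure D1:**
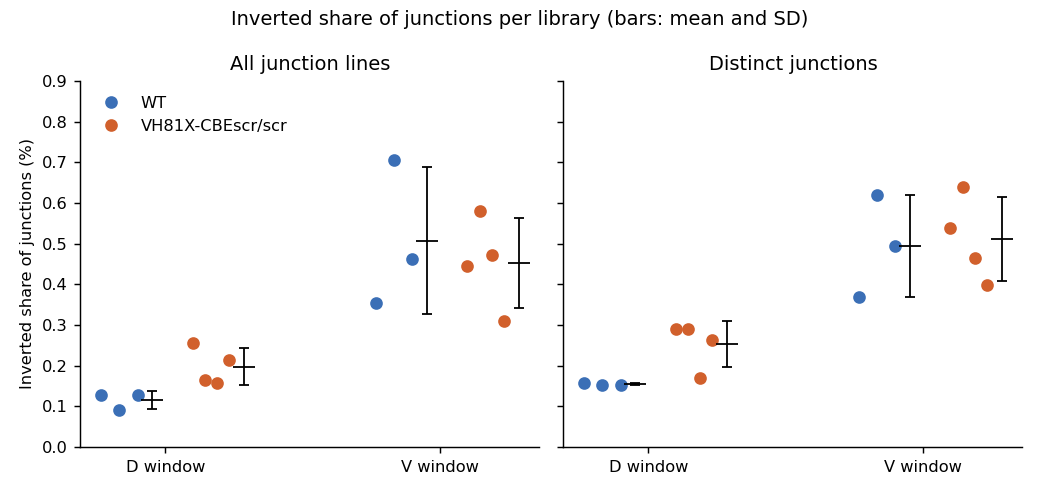
Inverted share (%) of all D-window and V-window junctions, 1 point per library, for all lines (left) and distinct junctions (right); blue is WT, orange the mutant, and bars give the mean and SD. The WT points of the D window lie at 0.0905% to 0.129% and the mutant points at 0.157% to 0.255% on the left, while the groups overlap in the V window.

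Lines marked as duplicates were a smaller share of inverted than of deletional lines. In the D window 55.7% ± 11.9 of inverted lines carried the files' duplicate mark, against 86.1% ± 2.20 of deletional lines (SD, n = 7 libraries). In the V window the shares were 43.8% ± 15.4 and 62.6% ± 6.43. Both differences were in the same direction in 7 of 7 libraries (adjusted exact permutation p = 0.0208 each, over 4 measures). Lines per distinct junction were 2.23 ± 0.464 for inverted and 2.94 ± 0.852 for deletional D junctions (adjusted exact p = 0.0208). For V junctions they were 1.84 ± 0.701 and 1.93 ± 0.509, a difference that did not pass (adjusted exact p = 0.391). Without molecular identifiers, separate joins with the same position, bait end and inserted bases cannot be told from repeated reads. Such matches are likelier among the far more numerous deletional lines, so these tests cannot decide whether repeated reading differed. In the D window, leaving out marked or matching lines also reduced the deletional lines more, which raised the inverted share.

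Most inverted prey began at or next to a recombination signal. Of the 440 inverted V lines, 257 began exactly at the first heptamer base and 64 more up to 2 bases before it, so that 321 (73.0%) lay at the border. A further 76 had lost 1 to 30 signal bases, 3 kept 3 or more coding bases, and 40 lay farther from any border. WT replicate 2 gave 20 of these 40 lines, from 8 distinct junctions. It also gave 20 of the 43 inverted V lines with prey under 50 bases, and all 3 whose read held the reverse complement of its prey. Of the 264 inverted D lines, 137 (51.9%) lay at the border, 75 of them exactly and 62 of them 1 or 2 bases before it. Another 87 had lost signal bases, 15 kept 3 or more coding bases and 25 lay elsewhere. Counted as distinct junctions, 186 of 254 V junctions and 62 of 121 D junctions lay at the border.

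The borders themselves were mostly placed by a heptamer in the inverted prey, so the letters of the prey were also counted without them. The consensus heptamer CACAGTG, searched on the prey strand within 3 bases of its first base, began 129 of 264 inverted D lines and 219 of 440 inverted V lines. Over the 7 libraries these were 47.8% ± 18.1 and 51.1% ± 13.1 (SD). Among deletional lines of the same libraries the share was 0% in the D window and 0.0202% ± 0.0271 in the V window. Deletional prey is read from the coding side away from the heptamer, so this gap follows from the orientation and is given with no test. With 1 mismatch allowed in the last 4 bases, which takes in CACAATG, the count was 319 of 440 V lines and 132 of 264 D lines.

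**Figure D2:**
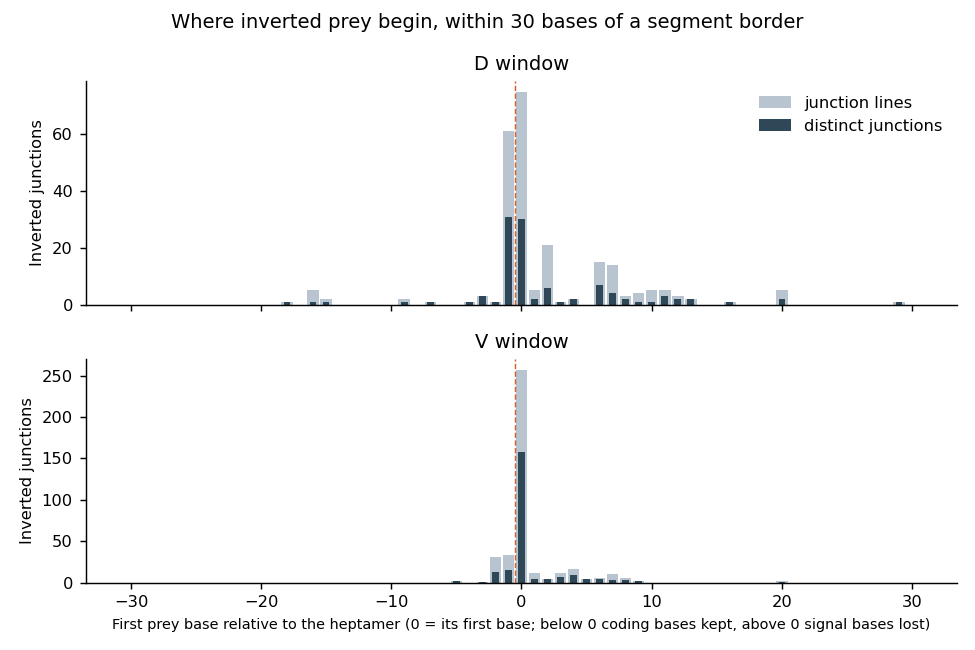
Number of inverted junctions by the distance in bases from the first heptamer base to the first prey base, for the D window (top) and the V window (bottom); light bars are lines, dark bars distinct junctions, and the dashed line is the border. The V window has 1 peak of 257 lines at 0. The D window has 75 lines at 0 and 61 at -1 (30 and 31 distinct junctions), and D junctions are also spread over lost signal bases.

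At least 3 coding bases were seen on few inverted joins, in 15 D and 3 V lines. A further 62 D and 64 V lines began 1 or 2 bases before the heptamer and are counted as at the border. The 15 D lines with 3 or more coding bases before the heptamer came from 5 sites and 9 distinct junctions. D_114687612 gave 9 of these lines, from 4 distinct junctions with 4 to 18 bases before the heptamer. The longest of these reached past the 16 coding bases of that segment. DQ52 gave 3 lines, with 7 to 9 of its 11 coding bases. DFL16.1, with 51 inverted lines, gave 1 such line, with 3 bases.

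All 12 main D segments, those with at least 1% of deletional lines, had inverted lines, and 251 of the 264 lay at them. DFL16.1 had the most, with 51 lines from 19 distinct junctions, or 20.3% of inverted against 22.7% of deletional lines at the 12 segments. WT replicates 1 to 3 held 3, 1 and 7 of them and mutant replicates 1 to 4 held 18, 0, 9 and 13. The groups overlapped through mutant replicate 2, which held none, while the other 3 mutant libraries lay above every WT library. DQ52 had 17 inverted lines, 12 of them in WT replicate 1 and none in 4 libraries. At the border lay 0 of the 17, while 9 had lost signal bases, 3 kept coding bases and 5 lay farther away. Of the 51 DFL16.1 lines, 42 lay at the border.

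Inverted lines were few at 2 neighbouring D segments on the DFL16.1 side. D_114719358 had 5 inverted lines beside 11038 deletional ones, and D_114723458 had 2 beside 8285. Their shares among the 12 segments were 1.99% inverted against 6.90% deletional, and 0.797% against 5.18%. The first was lower among inverted lines in 7 of 7 libraries (mean log2 ratio -1.78 with 0.5 lines added) and the second in 6 of 7 (-1.72). Over distinct junctions the ratios were -0.89, lower in 5 of 7, and -1.07, lower in 6 of 7, and over lines not marked as duplicates they were -0.97 and -1.25. Neither passed the adjustment over the 12 segments (exact sign-flip p = 0.0156 and 0.0312, adjusted 0.188 for both). None of the 12 was called (0% called), 2 had an unadjusted p under 0.05, and with so few lines the ratios depend on the added value. The signal of D_114723458 was the sequence shared by 7 segments, and that of D_114719358 differed from it in its letters as shown.

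**Figure D3:**
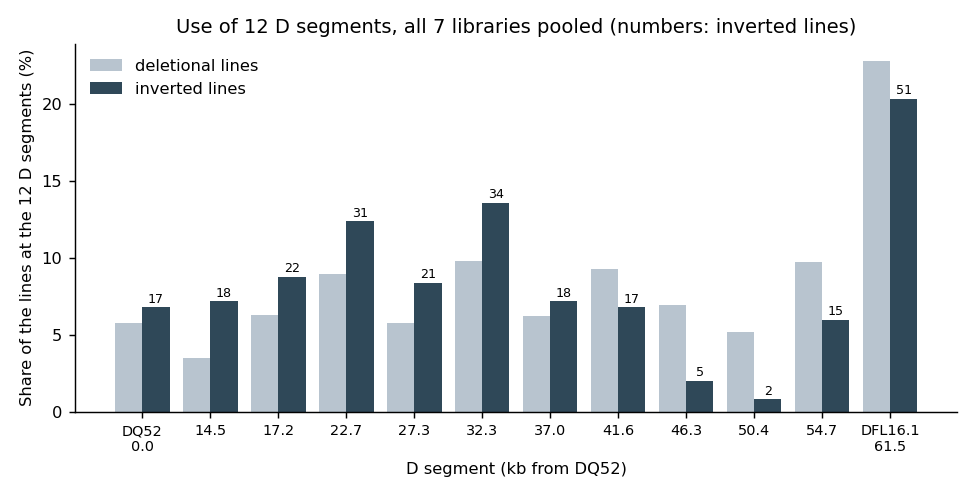
Share (%) of deletional (light) and inverted (dark) lines at each of 12 D segments, pooled over 7 libraries, ordered by distance from DQ52 in kb; numbers give inverted lines. DFL16.1 leads in both orientations, and the segments with 5 and 2 inverted lines show the widest gap.

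Inverted V lines were spread over many segments and included most of the much used ones. Of 158 V segments, 75 had at least 1 inverted junction, including 19 of the 20 most used. Across segments, Spearman's rho between inverted and deletional lines was 0.62, and 0.61 for distinct junctions, as a description over segments that share libraries. The 4 segments with the most inverted lines were VH2-2, VH5-4, VH81X and VH2-3, which lie near the D segments. Together they held 114 inverted lines, or 25.9% of inverted and 19.9% of deletional V lines. By distance from VH81X, the rate was 5.50 inverted per 1000 deletional lines up to 100 kb farther from JH and 3.99 beyond 1.5 Mb. VH81X and VH5-1 formed a class of their own, with a rate of 5.85. No distance class passed a test of its share between the orientations (adjusted exact permutation p of 0.859 for all 6 classes).

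**Figure D4:**
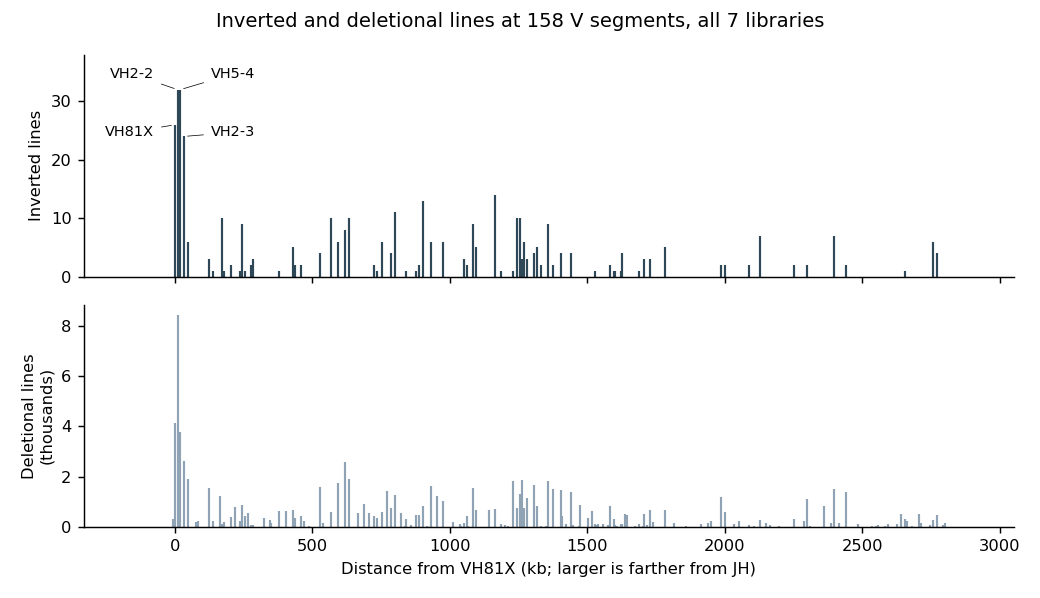
Inverted lines (top) and deletional lines (bottom, axis in units of 1000) at 158 V segments, all 7 libraries, by distance from VH81X in kb. Both are highest near VH81X, where VH2-2 and VH5-4 hold 32 inverted lines each, and both extend over the whole range.

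VH81X had few inverted joins in the mutant, where its deletional joins were few as well. WT replicates 1 to 3 held 14, 4 and 6 inverted VH81X lines, and mutant replicates 1 to 4 held 0, 0, 2 and 0. The groups did not overlap. Deletional VH81X lines were 1511, 1006 and 1508 in WT and 46, 8, 14 and 26 in the mutant. Pooled, 24 inverted lines stood beside 4025 deletional ones in WT and 2 beside 94 in the mutant. Whether inverted lines changed relative to deletional ones was not tested. As a share of V-window lines the inverted ones were 0.0530% ± 0.0258 (SD, n = 3) and 0.00382% ± 0.00763 (SD, n = 4). A count of 0 would have allowed up to 0.0190% to 0.0256% in the 3 mutant libraries without a line.

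The planned limma-voom fit did not test this site, because its mean of 8 lines in WT lay below the minimum of 10. Of 129 V sites of both orientations in that fit 5.43% were called, and no inverted site was among those tested. Without the minimum, the inverted VH81X site was the only one of 14 inverted V sites called (log2 fold change -3.29, SE 1.01, limma-voom adjusted p = 0.0337), where 4.07% of 172 sites were called. An exact permutation test of its share gave p = 0.029 and an adjusted p of 0.343 over 24 named sites. That test was added after the counts were seen, and it called none of the 24 (0%) after adjustment. VH81X and V_116193011 were the 2 of the 24 (8.33%) with an unadjusted exact p under 0.05 and a lower share in the mutant. V_116193011, with 10 lines in WT and 1 in the mutant, was not called by the fit without a minimum (adjusted p = 0.329).

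Neighbours of VH81X had inverted joins in both genotypes. VH2-2 was found in all 7 libraries, with 2, 3 and 8 lines in WT and 7, 4, 3 and 5 in the mutant (adjusted exact permutation p = 0.775). VH5-4 had 4, 0 and 2 lines in WT and 7, 0, 13 and 6 in the mutant, with overlap at 0 (adjusted exact p = 0.561). Of its 32 lines, 4 lay at a separate site described at the end. VH2-3 had 3, 15 and 0 lines in WT and 0, 3, 0 and 3 in the mutant. The 15 lines of WT replicate 2 outnumbered those of the other 6 libraries together.

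**Figure D5:**
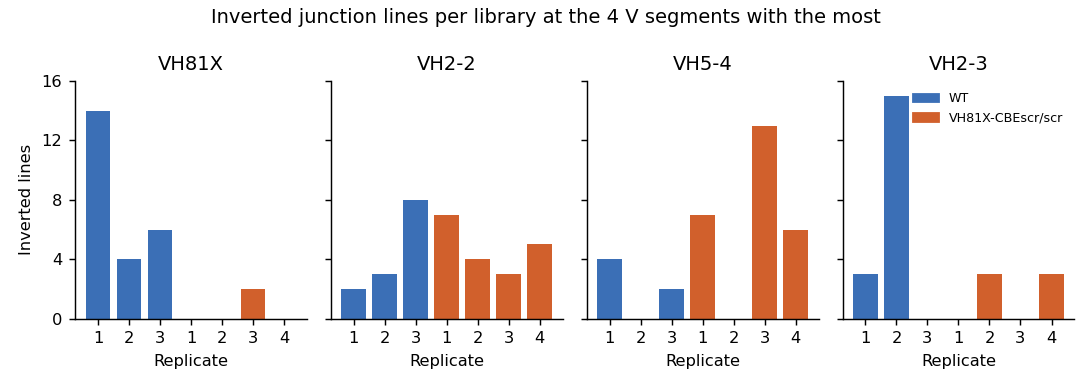
Inverted lines in each library at the 4 V segments with the most such lines; blue bars are WT replicates, orange bars mutant replicates. VH81X has 14, 4 and 6 lines in WT and 2 lines in 1 of 4 mutant libraries, while VH2-2 has lines in all 7.

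In the D window the same fit called 4% of 25 sites of both orientations. DFL16.1 was the only inverted D site it tested, and it reached the minimum only through the mutant, with a mean of 10 lines against 3.67 in WT. It was not called (log2 fold change 1.21, SE 1.37, limma-voom adjusted p = 0.783), and without mutant replicate 1 or 4 it was not tested. Without mutant replicate 2 the value was 2.15, also uncalled. Without the minimum none of the 10 inverted D sites was called, and their median log2 fold change was 0.72 beside 0.10 over the 45 sites tested (2.22% called). With inverted lines alone as library size, that median turned to -0.33, also with none called, so no direction is read from it. No single D segment passed a test as the place of the higher inverted share of the mutant.

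Farther V segments with at least 10 inverted lines were often made of a few repeated junctions. V_115999120 had 14 lines from 3 distinct junctions, 13 of them in WT replicate 2. V_115739254 had 13 lines from 4, 11 of them in mutant replicate 2, and V_115635402 had 11 from 3. V_115006778 stood out by its low deletional use, with 10 inverted lines from 5 distinct junctions beside 127 deletional lines. Its inverted lines were 1, 4 and 5 in mutant replicates 2 to 4 and none in the other 4 libraries (adjusted exact p = 0.561). The signal of V_115111723, with 2 inverted and 55 deletional lines, was identical to that of V_115006778 over its whole length. Whether inverted prey were placed at the right copy was not tested.

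No measure of the bases between bait and prey passed a test between inverted and deletional joins of the same window. Inverted V lines held 15.9 ± 1.64 inserted bases on average, against 16.9 ± 0.120 in deletional V lines (SD, n = 7 libraries). D bases in the deletional orientation, at least 9 in a row, were found in the insert of 59.4% ± 7.99 of inverted V lines. The share was 61.3% ± 0.535 of deletional V lines. The difference was -1.83 percentage points with an adjusted exact permutation p of 0.679. Inverted D lines held 4.83 ± 1.94 inserted bases and deletional ones 3.92 ± 0.0512 (adjusted exact p = 0.5). Such D bases were in the insert of 3.14% ± 4.755 of inverted and 0.911% ± 0.179 of deletional D lines (adjusted exact p = 0.5). Bait and prey overlapped in 2.51% ± 4.13 of inverted and 0.1915% ± 0.121 of deletional V lines (adjusted exact p = 0.375). None of 8 such measures differed after adjustment, and none had an unadjusted p under 0.05. Inverted values varied widely among libraries, so similarity is not shown by this. The bait ended a median of 4 bases short of its last commonly used base in all 4 classes of junction. Most inserts were not shared with other joins: of 188 distinct inverted V junctions with at least 12 inserted bases, 2 had the same insert in a deletional V line of their library.

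The D bases within V joins gave a second view of D orientation. Among deletional V lines with D bases in 1 orientation, 57975 had them in the deletional and 65 in the inverted orientation, or 0.112% (95% Wilson interval 0.0879% to 0.143%). The 65 lines were 34 distinct junctions. Lines with D bases in both orientations were left out of these counts. By library the share was 0.0980%, 0.0743% and 0.0332% in WT and 0.192%, 0.0563%, 0.173% and 0.156% in the mutant. The groups overlapped on this share, with means of 0.0685% ± 0.0328 (SD, n = 3) and 0.144% ± 0.0606 (SD, n = 4) and an exact permutation p of 0.114. Any D bases in the inverted orientation, with or without others, were held by 0.395% ± 0.1095 of all deletional V lines (SD, n = 7 libraries). By library this was 0.302%, 0.228% and 0.376% in WT and 0.5645%, 0.463%, 0.437% and 0.394% in the mutant. The groups did not overlap on that measure, which was not tested. Among inverted V lines 256 had D bases in the deletional orientation only and 0 in the inverted only, which allows a share of up to 1.17%. Another 2 held both.

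Inverted V lines away from every deletional border included a pair of sites with the same sequence. The 39 bases are shown because they begin with a heptamer-like stretch, given in capitals. The last 9 bases are in capitals as the place of a nonamer behind a spacer of 23 bases. That spacing was set in advance and not searched for.
chr12:114855186-114855224: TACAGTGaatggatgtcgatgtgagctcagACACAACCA
chr12:115081175-115081213: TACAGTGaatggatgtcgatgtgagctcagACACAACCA

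The first lay 136 bp on the JH side of the VH5-4 border and the other 136 bp on the JH side of the V_115081350 border. They held 4 and 7 inverted lines, from 3 and 4 distinct junctions, beginning within a few bases of the heptamer-like stretch. All 11 lines came from the mutant, with 6, 2, 3 and 0 in replicates 1 to 4. In the deletional orientation there was 1 line within 50 bp of the first and none at the other. With so few lines the genotypes were not compared.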

How the data were processed

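Each deposited table lists 1 junction per line and holds no counts, so lines were counted here. The submitters' processing notes name Bowtie2 and mm9; versions and filters are not given in the sources used here. Per the file headers, duplicate reads are marked, and they were kept. Junctions of each orientation were joined into sites (gaps up to 300 bp, 10 or more lines). The border of a segment was the first heptamer base in the inverted prey consensus or, where none was read, the base on the JH side of its most frequent deletional junction. DQ52 and DFL16.1 were named by 11 and 23 coding bases and 8 V segments by spacing from VH81X within 60 bp, from a GRCm38.p6 gene table. Sites named in the text were the 10 with most inverted lines in each window (ties included), sites past the test's threshold, DQ52, DFL16.1 and VH81X. Other segments named (D_114719358, D_114723458 and the pair of sites away from borders) were chosen after their values were seen. The members and lists were chosen with earlier results of these data known.

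Two-sided exact permutation tests compared single shares, and sign flips over the 7 libraries compared orientations. Sites were compared by limma-voom (limma 3.58.1, R 4.3.3) with all lines of the window as library size and Benjamini-Hochberg adjustment at 0.05. SciPy 1.17.1 and pandas 2.3.3 ran under Python 3.11.15. Both tests were tested on simulated data. Nothing in the labels ties a library to its own mouse, and p-values then speak of spread among libraries, which may be technical. Reads carry no molecular identifiers, and so 95% intervals and limits from a count of 0 (3 counts) hold for counting error only. Alternatives were duplicates left out, distinct junctions, prey of at least 50 bases, other denominators, filters, gaps and scaling, the replicate number as a block, and each library left out.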

Additional observations from a re-analysis of the deposited data

Results flagged for a closer look

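Over 30 groups of 4 VH81X-CBEscr/scr libraries tested for a library far from the others, 6 were past Dixon's critical value, where chance gives about 1 in 20. All 6 were counts of inverted lines at single sites, where most libraries held few or none. VH81X-CBEscr/scr replicate 4 held 14 inverted lines at D_114705399. Replicate 2 held 6 at D_114727777 and 11 at V_115739254. Replicate 3 held 2 at VH81X and 1 at V_116193011. Replicate 1 held 2 at V_116081018. Between the D and V windows, 22 further inverted lines were found, 12 in WT and 10 in VH81X-CBEscr/scr, in data that the comparisons did not use.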

How the results depend on the processing

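The higher inverted share of the D window in VH81X-CBEscr/scr kept its direction under every alternative run, but passed the threshold only for all lines, for prey of at least 50 bases and without junctions over 30 bases from a border. Its log2 difference was 0.72 with all lines of the library as denominator (exact permutation p = 0.0571), 0.69 for distinct junctions, 0.62 for lines not marked as duplicates and 0.72 with a replicate block (p = 0.25, the smallest 3 pairs allow). Leaving out 1 library gave 0.60 to 0.86, where no p under 0.05 is possible. For the V window the log2 difference turned to 0.049 with prey of at least 50 bases, 0.059 for distinct junctions, 0.033 for lines not marked as duplicates and 0.028 with a replicate block, and ranged from -0.37 to 0.13 without 1 library. The V over D ratio was 0.47 for lines not marked as duplicates and 1.34 to 1.75 without 1 library. The mutant minus WT difference in heptamer starts in the D window was 9.995 percentage points (exact p = 0.486) and turned to -11.2 for distinct junctions, -3.65 for lines not marked as duplicates and -5.98 with the heptamer at the first base exactly. In the V window it was 17.1 (exact p = 0.0857) and turned to -0.58 with 1 mismatch allowed. The causes were not tested. Leaving out junctions over 30 bases from a border, fitting inverted sites alone without the minimum, and the exact test of single sites were chosen after seeing the data.

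Called inverted V sites numbered 1 without the low-count minimum and 0 to 1 without 1 library, the 1 being VH81X without WT replicate 2, where it reached the minimum through WT. The replicate block gave 0 called inverted sites in both windows. Same-numbered libraries did not deviate together, with correlations from -0.55 to 0.17, so the numbers were not treated as pairs. The fit on inverted sites alone could not be fitted with the minimum and called none without it, with a median log2 fold change of -0.33 over inverted D sites. Joint structure differences turned, all uncalled, in the D window to -3.08 (share with inserts, distinct junctions) and 4.85 and 1.01 (overlap of bait and prey, distinct and unmarked lines). They turned in the V window to 2.15 (share with D bases, unmarked lines) and -0.19 (overlap, without junctions over 30 bases from a border). Without 1 library, D overlap ranged from -2.57 to 0.94 and V share with D bases from -4.16 to 0.0059. D site use turned, all uncalled, to 0.0033 for D_114690286 and 0.19 for D_114710077 (distinct junctions), 0.13 for D_114710077 (unmarked lines) and -0.059 for D_114695747 (longer prey). Without 1 library it ranged from -0.28 to 0.57 for D_114695747, -0.64 to 0.019 for D_114700407, -0.52 to 0.16 for D_114705399 and -0.34 to 0.37 for D_114710077. Counts of 2 to 51 lines per site limit every comparison of single sites.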
